A study of Homo sapiens with 12 samples.

Results

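Keratins are the intermediate filament proteins of epithelial cells, and 10 of their genes were followed here through 12 RNA-seq libraries of the triple-negative breast cancer (TNBC) cell lines HCC70 and MDA-MB468. The genes were chosen by name, 6 as basal keratins (KRT5, KRT6A, KRT6B, KRT14, KRT16 and KRT17) and 4 as luminal keratins (KRT7, KRT8, KRT18 and KRT19). Earlier results of these data were known when the genes were chosen, so counts set beside shares of all genes are descriptive. They are 10 of the 56364 gene symbols that the 3 expression tables of the series hold together, and each of the 10 is listed in all 3 tables.

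Keratin filaments are built from pairs of 1 type I and 1 type II protein and are anchored at desmosomes and hemidesmosomes. In the mammary gland KRT5 and KRT14 form the pair of the basal, myoepithelial layer, whereas KRT8 and KRT18 form the pair of simple epithelia and of luminal cells, accompanied by KRT7 and KRT19. KRT6A, KRT6B, KRT16 and KRT17 are sparse in resting epidermis and are induced in wounded or hyperproliferative epithelium, and KRT5, KRT6 and KRT17 are used as marks of basal-like breast cancer.

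Treatments lasted 24 h and each condition has 1 library. For HCC70 there are libraries of cells given vehicle, XY018, which antagonizes the nuclear receptor RORγ, at 1.25 µM or 2.5 µM, the statin atorvastatin (ATV) at 1.25 µM, and XY018 and ATV at 1.25 µM each, and for MDA-MB468 there are libraries of the same 5 treatments. In a separate experiment MDA-MB468 cells were given vehicle or GSK805, another RORγ antagonist, at 2.5 µM. Both are established cell lines, no engineered change is named for any group, and the media given for the lines differ. Per the labels insulin was added to the RPMI medium for MDA-MB468 and not for HCC70, whereas the study's methods give DMEM for MDA-MB468 and name no insulin for either line.

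Levels are FPKM, the fragments of a gene scaled by transcript length and by the mapped fragments of the library, and the 3 tables were normalized separately. Ratios to vehicle are log2 values within a table, taken after 0.1 FPKM had been added to each level, and a gene was compared where either library of the pair reached 1 FPKM. A gene is called lower or higher past 1.5-fold, which is 0.58 on the log2 scale. With 1 library per condition no difference has a replicate check and no test was run. The spacing of low FPKM values gave depths of 9180000 to 10000000 fragments for HCC70, 17700000 to 19400000 for MDA-MB468 with XY018 and ATV, and 8350000 to 8690000 for the GSK805 experiment. Intervals (95%, exact Clopper-Pearson) from the fragments estimated per gene, without the added 0.1 FPKM, cover counting error only. The median log2 ratio of all genes lay between −0.024 and 0.011 in the 9 comparisons with vehicle.

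On the GRCh37 assembly the genes form 2 clusters. KRT7, KRT6B, KRT6A, KRT5, KRT8 and KRT18 lie in this order within 0.72 Mb of chromosome 12, and KRT19, KRT14, KRT16 and KRT17 lie within 0.101 Mb of chromosome 17. KRT5 spans chr12:52908359-52914178 with 9 exons, KRT8 spans chr12:53290975-53298860 with 8 exons, KRT14 spans chr17:39738531-39743147 with 8 exons, all on the minus strand. The chromosome 12 group holds the type II genes and the type I gene KRT18, and the chromosome 17 group holds the remaining type I genes.

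Near-identical copies bear on what a keratin value can mean. KRT6A, KRT6B and another copy, KRT6C, are adjacent genes with coding sequences of 1692 bases, and KRT6A and KRT6B differ at 42 of these bases (97.5% identical), KRT6A and KRT6C at 35, and KRT6B and KRT6C at 25. The 90 bases of exon 2 below, on the minus strand of GRCh37 at chr12:52885316-52885405 for KRT6A, chr12:52844200-52844289 for KRT6B and chr12:52865860-52865949 for KRT6C, are the single-exon stretch with the most differences, and capitals mark the 10 positions at which the copies are not all the same. They are shown because only fragments over such positions separate the copies, whose values are described one by one.
KRT6A: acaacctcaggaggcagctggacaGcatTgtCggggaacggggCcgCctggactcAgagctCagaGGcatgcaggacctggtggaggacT
KRT6B: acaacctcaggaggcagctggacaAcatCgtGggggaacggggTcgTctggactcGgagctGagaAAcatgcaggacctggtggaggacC
KRT6C: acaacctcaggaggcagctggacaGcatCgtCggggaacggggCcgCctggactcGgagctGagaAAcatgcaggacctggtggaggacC

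Of the 50-base stretches of each transcript, 39.2% in KRT6A, 46.6% in KRT6B, 39% in KRT8 and 35.3% in KRT18 also occur in another keratin gene or pseudogene, as do 21.7% in KRT14, 21.8% in KRT16 and 14.6% in KRT17. The shares are 4.52% in KRT5, 1.79% in KRT19 and 0.444% in KRT7. For KRT8 and KRT18 the copies are mostly pseudogenes, 33 and 43 of them, and for KRT14 and KRT16 each is the largest or second largest source for the other. How the authors' counting divided fragments between copies is not given in the sources used here, so the values of KRT6A, KRT6B, KRT14, KRT16, KRT8 and KRT18 are the less certain ones. Longer annotated transcripts of KRT8 also reach KRT18 on the opposite strand, and use of strand in the counting is not given either.

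The promoter of KRT5, the only one of the 10 genes that was lower past 1.5-fold with XY018 at both doses in both lines, is printed below from the RefSeq table (GRCh38.p14, chr12:52520395-52520644, minus strand), as the 250 bases before the start site. Capitals mark the only match, on either strand, among TATAAA (the TATA box), TGANTCA (the AP-1 site), AGGTCA (the core recognised by many nuclear receptors), GGGCGG (the GC box) and CACCC (the box bound by Krüppel-like factors), a CACCC that begins 147 bases before the start.
KRT5: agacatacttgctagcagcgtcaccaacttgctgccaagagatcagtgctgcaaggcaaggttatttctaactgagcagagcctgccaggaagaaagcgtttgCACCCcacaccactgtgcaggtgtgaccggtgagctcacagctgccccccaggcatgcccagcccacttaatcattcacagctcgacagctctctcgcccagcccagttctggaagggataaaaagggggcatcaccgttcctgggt

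A CACCC occurs on either strand in 54.7% of the 35116 promoters of the same length, and AGGTCA in 12.1%. The absence of AGGTCA says only that these letters are not in this window. The table also lists KRT8, within whose RefSeq span several transcripts start. It does not list KRT6A, KRT6B, KRT14, KRT16, KRT17, KRT7, KRT18 or KRT19.

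In the untreated libraries the lines differed in their keratins, chiefly on the basal side. The values for vehicle-treated HCC70 and MDA-MB468 come from separately normalized tables, so they are set side by side without a ratio. KRT5 stood at 659.8 FPKM in HCC70 and 112 in MDA-MB468, KRT17 at 379 and 118, KRT6B at 292 and 4.09, and KRT16 at 287 and 8.66. KRT6A stood at 85.4 FPKM in HCC70 and was listed at 0 in MDA-MB468. KRT14, the usual partner of KRT5, was low in both, at 7.32 and 4.63 FPKM.

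The luminal keratins were abundant in both lines. KRT19 was the highest of the 10 in every library, with 871 FPKM in HCC70 vehicle and 1109 in MDA-MB468 vehicle. KRT7 stood at 521 and 689, KRT8 at 313 and 918, and KRT18 at 247 and 652 FPKM. Within a library the comparison does not depend on scaling, and there the basal genes held 46.7% of the summed FPKM of the 10 keratins in HCC70 vehicle and 6.84% in MDA-MB468 vehicle. The line, its medium and its table cannot be told apart in this difference.

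**Figure D1:**
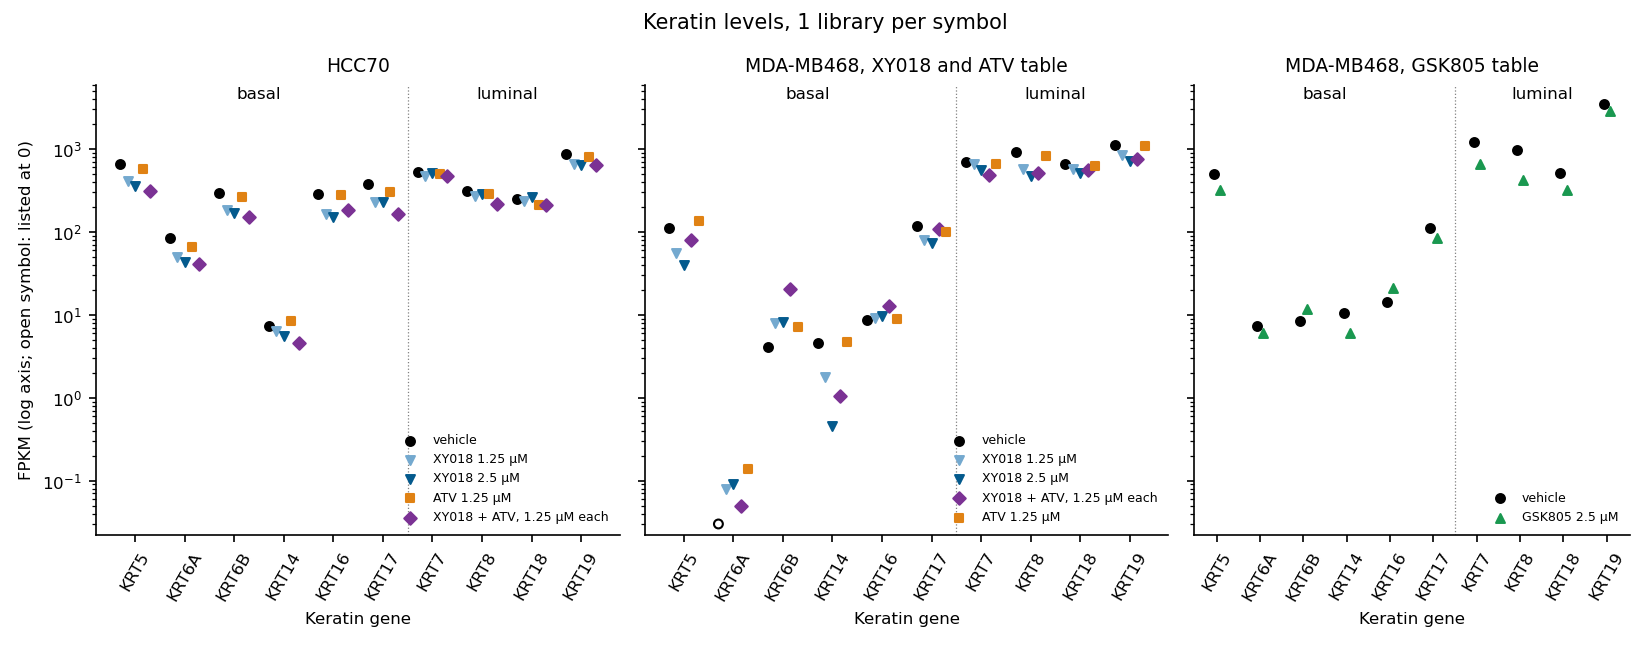
FPKM of the 10 keratins (log axis) in each library of the 3 tables, 1 symbol per library, with the basal genes on the left and the luminal genes on the right of each panel and an open symbol for a value listed at 0. In HCC70 every basal gene except KRT14 lies between 40.87 and 659.8 FPKM, and in the XY018 and ATV table of MDA-MB468 KRT6A never exceeds 0.14 FPKM.

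Other basal and luminal markers did not divide the lines in 1 direction. EGFR, a receptor often high in basal-like cancer and amplified in MDA-MB468, stood at 48.0 FPKM in HCC70 vehicle and 944 in MDA-MB468 vehicle, while the laminin chain LAMB3 stood at 122 against 6.52. TP63, the basal transcription factor, was at 0.92 and 0.85 FPKM, under the limit for comparison. ESR1 was at 0.56 and 0.48 FPKM and PGR was not listed for HCC70 and was at 0 in MDA-MB468, while the luminal factors GATA3 and FOXA1 stood at 18.5 and 28.6 in HCC70 and at 26.6 and 18.03 in MDA-MB468. Of 6 fibroblast markers only COL1A1 reached 1 FPKM, with summed levels of 3.86 to 17.75 FPKM, and DCN and LUM stood at 0.02 FPKM or below or were not listed in the vehicle libraries. Of the 4 immune markers 1, CD14, was above 1 FPKM in the vehicle libraries, at 170.0 in HCC70 and 17.9 in MDA-MB468.

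With XY018 the basal keratins of HCC70 were lower and the luminal ones stayed within 1.5-fold of vehicle. At 1.25 µM 5 of the 6 basal genes and 0 of the 4 luminal genes were called lower, where 2.64% of 11738 genes were called lower and 1.93% higher. At 2.5 µM the same 5 basal genes, KRT5, KRT6A, KRT6B, KRT16 and KRT17, were called lower again, against 3.26% of 11721 genes lower and 2.62% higher, and no luminal gene was called. The basal median was −0.70 at 1.25 µM and −0.85 at 2.5 µM (log2 ratios), and the luminal median was −0.18 and −0.08. In bulk RNA, fewer cells of a type and less RNA per cell cannot be told apart. All 5 genes called lower stood above 50 FPKM with vehicle, and among the 1532 genes at that level 1.5% were lower at 1.25 µM and 1.76% at 2.5 µM. The summed level of the 4 immune markers moved with XY018 as well, at 170.3 FPKM with vehicle, 317 and 420 with XY018, 172 with ATV and 381 with both, nearly all of it CD14. The part of this in the keratin values was not tested.

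KRT5 stood at 659.8 FPKM with vehicle, 408 with XY018 at 1.25 µM and 355 at 2.5 µM. The log2 ratio was −0.69 (interval −0.73 to −0.65) and −0.90 (−0.94 to −0.86), so that 53.8% of the vehicle level was left at the higher dose. Among all genes compared at that dose, 1.17% had a ratio as low or lower.

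The stress-induced keratins KRT6A, KRT6B and KRT16 were all lower past 1.5-fold. KRT6A was at 85.4 FPKM with vehicle, 50.5 at 1.25 µM and 43.15 at 2.5 µM. KRT6B was at 292, 185 and 168 FPKM in the same order. KRT16 was at 287, 165 and 149 FPKM. At 2.5 µM their log2 ratios were −0.98 (−1.10 to −0.87), −0.80 (−0.86 to −0.74) and −0.94 (−1.01 to −0.87), respectively, and with KRT6A, KRT6B and KRT6C summed the ratio was −0.84.

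KRT17 went from 379 FPKM to 232 at 1.25 µM and 230.1 at 2.5 µM, and its log2 ratios of −0.71 and −0.72 differed by less than the counting intervals of −0.77 to −0.64 and −0.78 to −0.66. KRT14 was the exception, at 7.32, 6.44 and 5.5 FPKM, with log2 ratios of −0.18 and −0.41. With 116 fragments estimated in the vehicle library and 88 at 2.5 µM, its interval at 2.5 µM ran from −0.83 to 0.00, which holds the ratios of KRT6B and KRT17 and ends short of those of KRT5, KRT6A and KRT16. A difference of KRT14 from KRT6B and KRT17 was not detectable at this depth.

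Among the luminal genes of HCC70, KRT7 was at 521 FPKM with vehicle, 468 at 1.25 µM and 509.7 at 2.5 µM. KRT8 was at 313, 272 and 285, and KRT18 at 247, 238 and 262 FPKM. KRT19 was at 871, 667 and 646 FPKM, with log2 ratios of −0.38 and −0.43 (−0.47 to −0.39), the lowest of the 4 and still inside the 1.5-fold limit. At 2.5 µM the ratios of KRT7, KRT8 and KRT18 were −0.03, −0.13 and 0.08. The intervals of the 4 luminal genes at 2.5 µM do not overlap those of the 5 basal genes called lower. These 5 were picked by the 1.5-fold limit, so their separation adds nothing to the calls. The interval of KRT14, the remaining basal gene, ran from −0.83 to 0.00 and overlaps those of KRT7, KRT8 and KRT19.

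**Figure D2:**
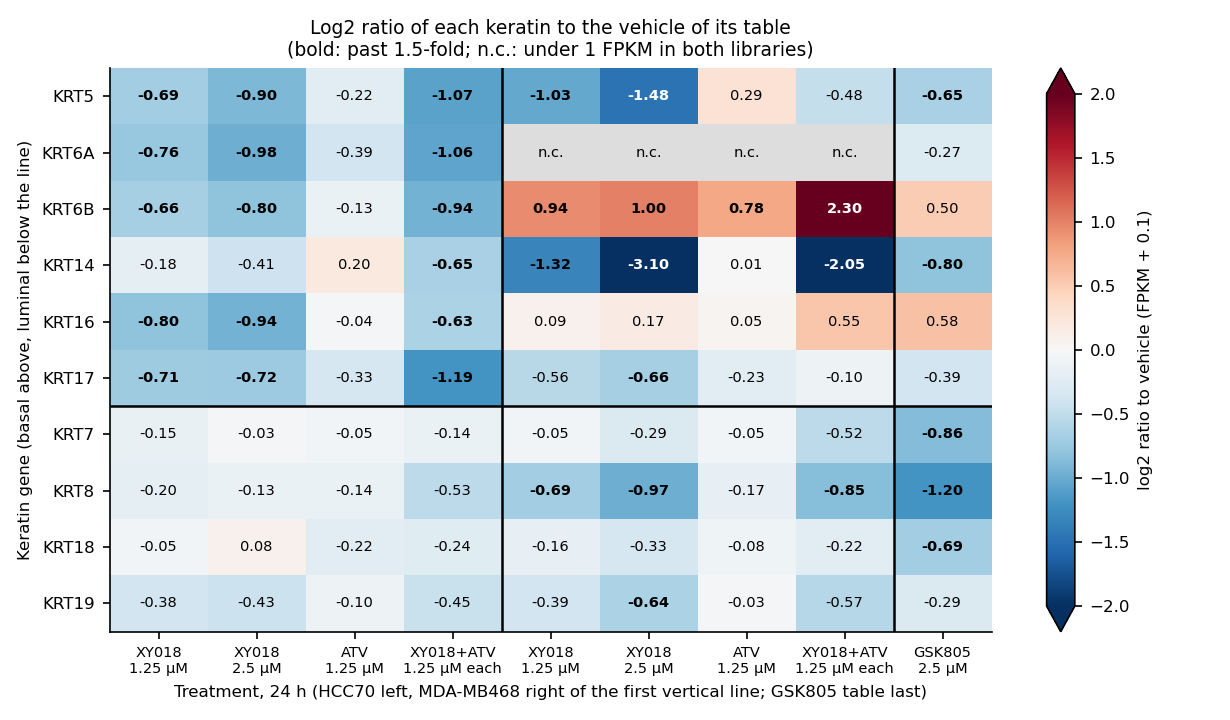
Log2 ratio of each keratin (rows, basal above luminal) to the vehicle of its own table in the 9 treated libraries (columns), printed in each cell and coloured from blue (lower) to red (higher), with bold values past 1.5-fold and n.c. for genes under 1 FPKM in both libraries. In HCC70 the bold values are all in basal rows, and in MDA-MB468 KRT8 is bold and negative with XY018 at both doses while KRT6B is bold and positive.

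Between the doses of XY018 in HCC70 no keratin changed by 1.5-fold, where 1.36% of genes were lower and 1.17% higher. The log2 ratios of the basal genes ran from −0.23 for KRT6A to −0.01 for KRT17, and those of KRT7, KRT8 and KRT18 were 0.12, 0.07 and 0.14. These steps have no replicate behind them.

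In MDA-MB468 the keratins past 1.5-fold with XY018 came from both classes and lay on both sides of vehicle. At 1.25 µM, where 8.38% of 11844 genes were called lower and 9.73% higher, 2 of the 5 basal genes compared were lower (KRT5 and KRT14), 1 was higher (KRT6B), and 1 of the 4 luminal genes was lower (KRT8). At 2.5 µM, where 14.5% of 11919 genes were lower and 14.1% higher, KRT17 and KRT19 joined the genes called lower. The basal median was −0.56 and then −0.66, and the luminal median −0.28 and then −0.49. Among the 1584 genes at 50 FPKM or above with vehicle, 16% were lower at 2.5 µM, and 4 of the 6 keratins at that level were (KRT5, KRT17, KRT8 and KRT19). The summed immune markers went the other way from HCC70, at 18.5 FPKM with vehicle, 9.75 and 8.39 with XY018, 16.4 with ATV and 7.03 with both, and their part in the keratin values was not tested.

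KRT5 was at 112 FPKM with vehicle, 55.01 at 1.25 µM and 40.25 at 2.5 µM in MDA-MB468. KRT14 was at 4.63, 1.80 and 0.45 FPKM, from an estimated 145, 56 and 13 fragments. The log2 ratios of KRT5 were −1.03 (−1.10 to −0.96) and −1.48 (−1.56 to −1.40), and those of KRT14 were −1.32 (−1.83 to −0.91) and −3.10 (−4.30 to −2.53). Both members of the basal pair were thus lower at the higher dose, and KRT14 was among the lowest 0.159% of all genes compared at 2.5 µM. Since 0.45 FPKM is close to the added 0.1, the ratio of KRT14 depends on it, and with 1 FPKM added it was −1.96. The interval of KRT14 was taken from fragments without the added value.

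KRT6B went the other way, at 4.09 FPKM with vehicle, 7.93 at 1.25 µM and 8.29 at 2.5 µM, with log2 ratios of 0.94 (0.69 to 1.22) and 1.00 (0.75 to 1.28). KRT6A was at 0, 0.08 and 0.09 FPKM, at most 4 estimated fragments, and at 0.14 with ATV and 0.05 with both compounds, and it was not compared. KRT16 was at 8.66, 9.25 and 9.75 FPKM, with an interval at 2.5 µM of −0.07 to 0.42 that includes no change. KRT6B was the only keratin of the 10 to be higher with XY018 in this line, and in HCC70 it was lower at both doses.

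KRT17 was at 118 FPKM with vehicle, 79.6 at 1.25 µM and 74.5 at 2.5 µM, with log2 ratios of −0.56 and −0.66 (−0.74 to −0.58). The first lies just inside and the second just outside the 1.5-fold limit.

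KRT8, the main type II keratin of luminal cells, was at 918 FPKM with vehicle, 567 at 1.25 µM and 468 at 2.5 µM in MDA-MB468. Its partner KRT18 was at 652, 581.72 and 517 FPKM. The log2 ratios of KRT8 were −0.69 (−0.72 to −0.67) and −0.97 (−1.0 to −0.94), against −0.16 and −0.33 (−0.37 to −0.30) for KRT18, and the ratio of KRT8 to KRT18 within a library went from 1.41 with vehicle to 0.975 and 0.905. In HCC70 the same ratio went from 1.27 to 1.14 and 1.09. Levels of a pair in 1 library share its scaling, so the difference between the partners does not depend on it.

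KRT19 was at 1109, 847 and 710.45 FPKM and KRT7 at 689, 664 and 563 FPKM, in the order vehicle, 1.25 µM and 2.5 µM. At 2.5 µM their log2 ratios were −0.64 and −0.29. From 1.25 µM to 2.5 µM in MDA-MB468 the log2 ratios of the luminal genes ran from −0.28 to −0.17. In that step KRT14 alone of the keratins passed 1.5-fold, with −1.79 (−2.99 to −1.10), where 1.73% of all genes were lower and 1.03% higher.

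**Figure D3:**
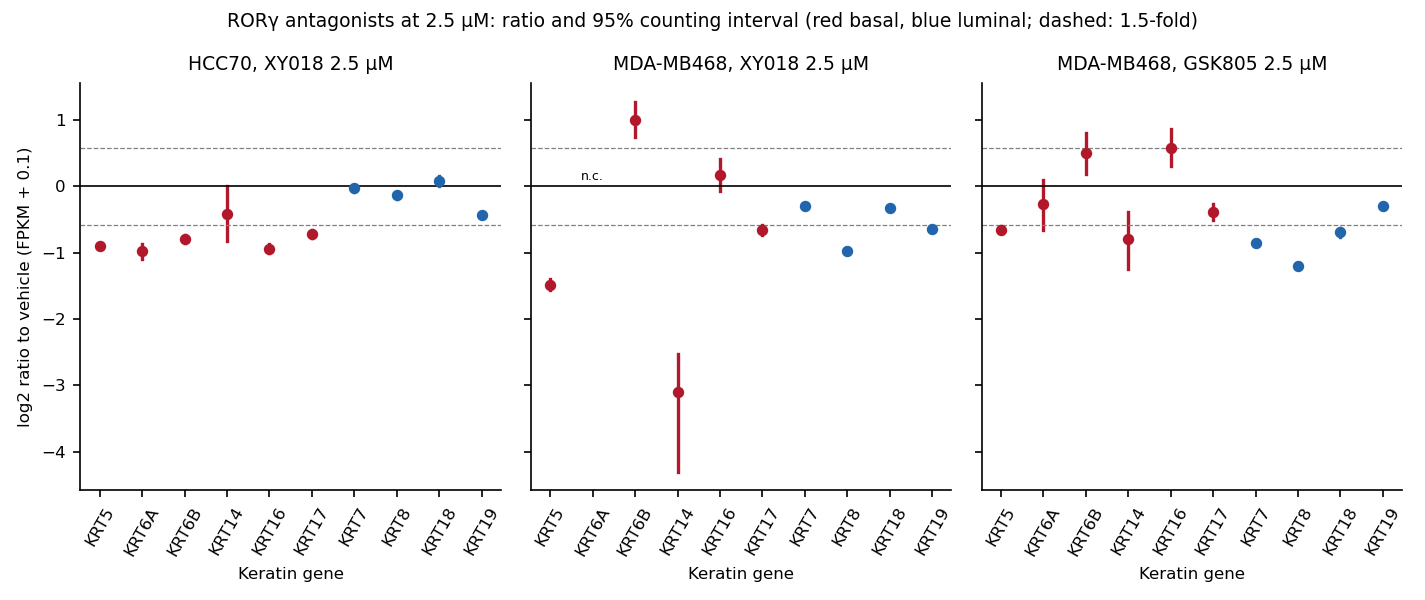
Log2 ratio to vehicle of each keratin at 2.5 µM XY018 in HCC70 (left), XY018 in MDA-MB468 (middle) and GSK805 in MDA-MB468 (right), with bars for the 95% counting interval, red for basal and blue for luminal genes, and dashed lines at 1.5-fold. The basal points of HCC70 lie together between −0.98 and −0.41, and those of MDA-MB468 with XY018 spread from −3.10 to 1.00.

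With ATV alone 1 keratin, in 1 of the lines, passed the limit. In HCC70 none of the 10 was called, where 1.32% of 11742 genes were lower and 2.22% higher, and the basal median was −0.17 and the luminal −0.12. KRT5 was at 568 FPKM against 659.8 with vehicle, KRT6A at 65.2 against 85.4, KRT6B at 267 against 292, KRT16 at 279 against 287 and KRT17 at 302 against 379. The lowest ratios were those of KRT6A, at −0.39 (−0.49 to −0.29), and KRT17, at −0.33 (−0.39 to −0.27). KRT14 was at 8.45 against 7.32 FPKM, with an interval of −0.16 to 0.57. The luminal levels with ATV were 502 for KRT7, 283 for KRT8, 212 for KRT18 and 812 for KRT19, each 85.9% to 96.4% of vehicle.

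In MDA-MB468 KRT6B was higher with ATV, at 7.08 FPKM against 4.09 with vehicle (log2 ratio 0.78, interval 0.52 to 1.06), where 0.803% of 11710 genes were called lower and 1.37% higher. No other keratin was called. KRT5 was at 137 FPKM against 112, a ratio of 0.29 (0.23 to 0.34) that 94.4% of all genes did not exceed. KRT17 was at 99.98 against 118 FPKM, KRT14 at 4.67 against 4.63 and KRT16 at 8.99 against 8.66, and the luminal genes KRT7, KRT8, KRT18 and KRT19 were at 667, 817, 619 and 1089 FPKM, all within −0.17 to −0.03 of vehicle. KRT5 was thus slightly lower with ATV in HCC70 and slightly higher in MDA-MB468, neither past 1.5-fold.

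With XY018 and ATV at 1.25 µM each, all 6 basal keratins of HCC70 were called lower than with vehicle and none of the 4 luminal ones, where 2.93% of 11792 genes were lower and 4.38% higher. The basal median was −1.0 and the luminal −0.34. KRT17 was at 166 FPKM (log2 ratio −1.19), KRT5 at 315 (−1.07) and KRT6A at 40.9 (−1.06). KRT6B was at 151 (−0.94), KRT14 at 4.63 (−0.65, interval −1.11 to −0.24) and KRT16 at 186 (−0.63). Of the luminal genes KRT8 came nearest to the limit, at 217 FPKM (−0.53), followed by KRT19 at 639 (−0.45), KRT18 at 209.5 (−0.24) and KRT7 at 472 (−0.14).

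The vehicle library is shared by these comparisons, so the libraries with both compounds were also set against each compound alone. Relative to XY018 at 1.25 µM in HCC70 no keratin passed 1.5-fold, where 1.96% of genes were lower and 3.75% higher. KRT17 was at −0.48 (−0.56 to −0.41), KRT14 at −0.47 (−0.93 to −0.02) and KRT5 at −0.37 (−0.42 to −0.33), while KRT16 was at 0.17 (0.10 to 0.25). Relative to ATV alone 5 basal genes were lower past 1.5-fold, where 2.54% of genes were lower and 2.73% higher, and KRT16, at −0.58 (−0.65 to −0.52), lay just inside the limit. The luminal genes were at −0.38 to −0.02 in that comparison.

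In MDA-MB468 both compounds together gave KRT6B its highest level, 20.5 FPKM against 4.09 with vehicle, 7.93 with XY018 and 7.08 with ATV. Its log2 ratio was 2.30 (2.09 to 2.56) to vehicle, 1.36 (1.19 to 1.55) to XY018 alone and 1.52 (1.35 to 1.73) to ATV alone, higher than 99.5%, 99.8% and 98.8% of all genes compared, respectively. Against vehicle 12.2% of 11906 genes were called lower and 13.1% higher, against XY018 1.76% and 2.1%, and against ATV 11.1% and 11.7%. KRT14 was the 1 keratin lower past 1.5-fold against XY018 alone (−0.74, interval −1.48 to −0.16), and KRT5 (−0.76), KRT14 (−2.06) and KRT8 (−0.68) were lower against ATV alone.

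KRT14 stayed low with both compounds, at 1.04 FPKM against 4.63 with vehicle, a log2 ratio of −2.05 (−2.77 to −1.61), and KRT8 was at 509 FPKM (−0.85). Besides these and KRT6B no keratin passed 1.5-fold against vehicle, and KRT19, at −0.57, and KRT16, at 0.55, came nearest to it. KRT5 was at 80.8 FPKM, between the 112 of vehicle and the 55.01 of XY018 alone, with ratios of −0.48 (−0.54 to −0.41) to vehicle and 0.55 (0.48 to 0.63) to XY018 alone. KRT17 was at 109 FPKM and KRT16 at 12.7 FPKM, with ratios to XY018 alone of 0.46 (0.38 to 0.54) and 0.45 (0.23 to 0.68). Of these ratios to XY018 alone only that of KRT6B was past 1.5-fold upward.

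None of the luminal genes of MDA-MB468 passed 1.5-fold between both compounds and XY018 alone. KRT7 came nearest, from 664 to 479 FPKM (−0.47, interval −0.50 to −0.44), and KRT18 was farthest from it, from 581.72 to 558 FPKM (−0.06). KRT8 went from 567 to 509 FPKM (−0.16) and KRT19 from 847 to 747 FPKM (−0.18).

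**Figure D4:**
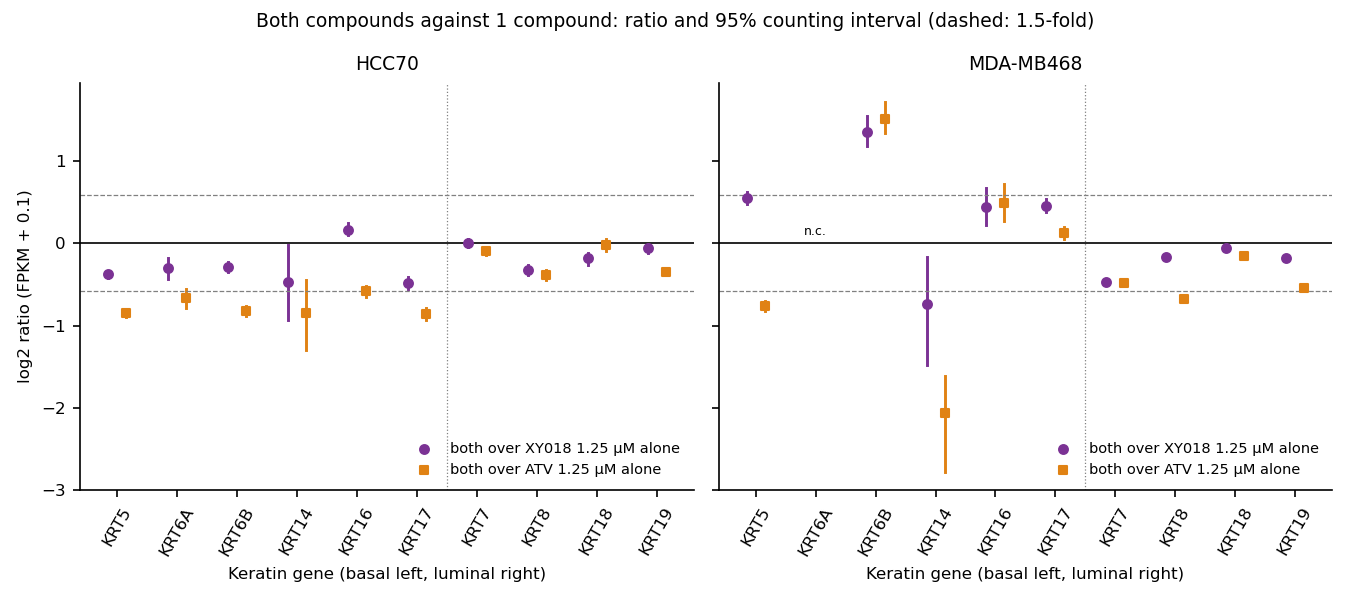
Log2 ratio of the library with both compounds to XY018 alone (purple circles) and to ATV alone (orange squares) for each keratin in HCC70 (left) and MDA-MB468 (right), with bars for the 95% counting interval and dashed lines at 1.5-fold. KRT6B lies at 1.36 and 1.52 in MDA-MB468 and at −0.29 and −0.82 in HCC70.

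The GSK805 library has a vehicle of its own. The table lists a wider annotation, with 55744 symbols, pseudogenes included, and 16.6% of 19951 genes were called lower and 17.6% higher. Among symbols that the other MDA-MB468 table also lists, 12.6% were lower and 13.5% higher. Of the keratins 3 of 4 luminal genes (KRT7, KRT8 and KRT18) and 2 of 6 basal genes (KRT5 and KRT14) were called lower and none higher, and the luminal median was −0.78 against a basal median of −0.33.

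KRT8 was at 967 FPKM with vehicle and 422 with GSK805, a log2 ratio of −1.20 (−1.24 to −1.15). KRT7 was at 1212 and 668 FPKM (−0.86, interval −0.90 to −0.82), and KRT18 at 513 and 317 FPKM (−0.69, interval −0.76 to −0.63). KRT19, the most abundant, was at 3482 and 2839 FPKM (−0.29, interval −0.32 to −0.27). The ratio of KRT8 to KRT18 went from 1.89 to 1.33.

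KRT5 was at 498 and 318 FPKM (−0.65, interval −0.70 to −0.60) and KRT14 at 10.6 and 6.02 FPKM (−0.80, interval −1.25 to −0.39). KRT17 was at 109.98 and 84.1 FPKM (−0.39). KRT16, at 14.1 and 21.2 FPKM (0.58, interval 0.31 to 0.87), lay just inside the limit, and KRT6B was at 8.35 and 11.8 FPKM (0.50, interval 0.19 to 0.81). KRT6A was at 7.30 and 6.03 FPKM, with an interval of −0.65 to 0.10 that includes no change, and the 3 KRT6 copies summed gave a ratio of 0.15.

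At 2.5 µM in MDA-MB468, KRT5, KRT14 and KRT8 were called lower with XY018 and with GSK805. Of all genes 14.5% were lower with XY018 and 16.6% with GSK805, and the share lower with both was not computed. The experiments were normalized apart and the difference between the compounds was not tested. KRT5 was at −1.48 with XY018 and −0.65 with GSK805, KRT14 at −3.10 and −0.80, KRT8 at −0.97 and −1.20, and KRT6B at 1.00 and 0.50. KRT7 was at −0.29 and −0.86 and KRT18 at −0.33 and −0.69, called lower with GSK805 only. KRT17, at −0.66 and −0.39, and KRT19, at −0.64 and −0.29, were called lower with XY018 only.

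The vehicle libraries of the 2 MDA-MB468 experiments were not alike in their keratins. The ratio of KRT5 to KRT8 within a library was 0.122 in the XY018 and ATV experiment and 0.515 in the GSK805 experiment, and KRT6A was listed at 0 in the first and at 7.30 FPKM in the second. The experiment, the annotation and the counting cannot be told apart here.

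The table of the GSK805 experiment also lists 140 keratin pseudogenes, most of them copies of KRT8 and KRT18. Of the 80 that could be compared 51 were lower and 5 higher, where 16.6% of all genes were lower and 17.6% higher, with a median of −0.89, and their summed FPKM went from 1337 to 775.5. Since 39% of the 50-base stretches of KRT8 and 35.3% of those of KRT18 recur in copies, pseudogene values can hold fragments of the parent gene. The pseudogenes are thus not separate observations, and their count cannot be read like that of other genes. For KRT8 and KRT18 the ratio was nearly the same with the pseudogenes named after them added, which for the same reason is no check on it. KRT16 with its pseudogenes added had a ratio of 0.89.

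The composition of the keratin pool was summarized within each library. In HCC70 the basal share of the summed keratin FPKM was 46.7% with vehicle, 38.9% and 35.8% with XY018 at 1.25 and 2.5 µM, 45.2% with ATV and 36.0% with both. In MDA-MB468 it was 6.84%, 5.46% and 5.57%, 7.48% and 8.92% in the same order, and in the GSK805 pair it was 9.51% and 9.53%. The share was lower in the 3 HCC70 libraries with XY018 than in the 2 without it, while in MDA-MB468 the library with both compounds had the highest share of its table.

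**Figure D5:**
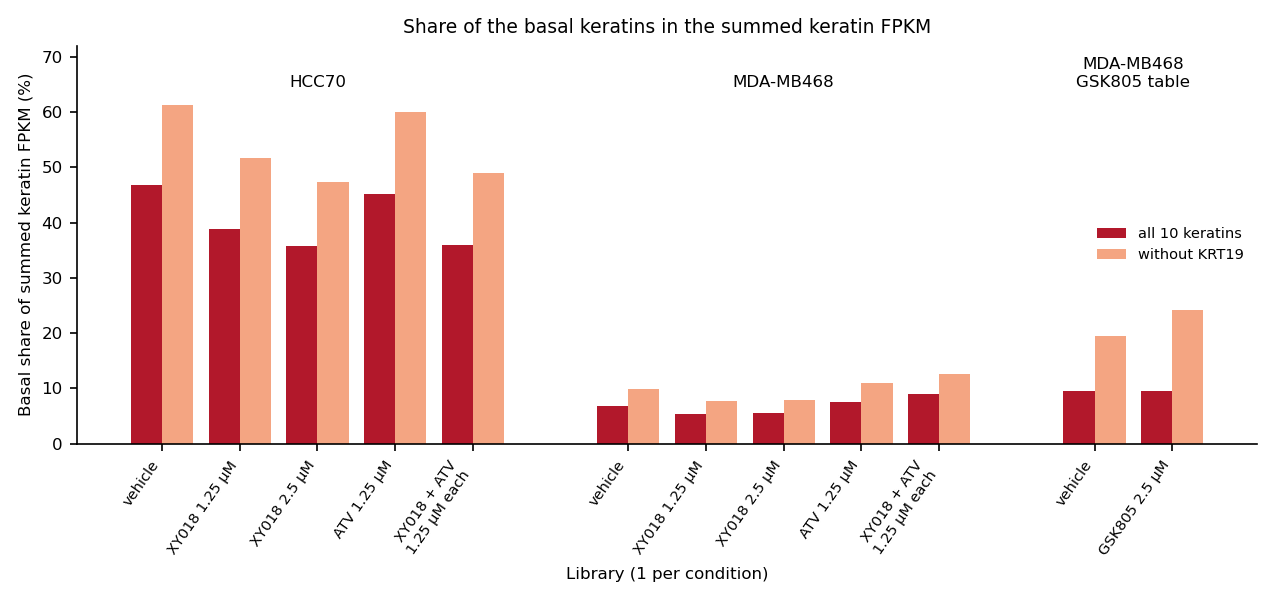
Basal share of the summed FPKM of the 10 keratins in each library (dark bars) and the same without KRT19 (light bars), on an axis from 0. In HCC70 the dark bar falls from 46.7% with vehicle to 35.8% with XY018 at 2.5 µM, and in MDA-MB468 all dark bars are below 10%.

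The 10 keratins together made up 0.809% of all FPKM in HCC70 vehicle and 0.599% with XY018 at 2.5 µM, and 0.841% and 0.535% in MDA-MB468. The summed type II over summed type I FPKM stayed between 0.992 and 1.06 in the 5 HCC70 libraries. In MDA-MB468 it was 0.911 with vehicle, 0.852 and 0.822 with XY018, 0.894 with ATV and 0.763 with both, and in the GSK805 pair it went from 0.652 to 0.436.

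Few other keratins were expressed at 5 FPKM or above, and several of them differed between the lines as well. Of 29 others listed for HCC70, 4 reached that level. KRT23, a type I keratin of simple epithelia, was at 39.5 FPKM with vehicle, 50.2 with XY018 at 1.25 µM and 60.1 at 2.5 µM, where its log2 ratio of 0.60 was past 1.5-fold. In MDA-MB468 it was at 48.0, 27.45 and 20.7 FPKM, a ratio of −1.21 at 2.5 µM, and with GSK805 it was at 37.4 against 63.8 FPKM (−0.77). KRT80 passed the limit in HCC70 with both compounds only (−0.77, from 14.6 to 8.51 FPKM), and KRT10 and KRT15 did not pass it there.

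In MDA-MB468 KRT4, the type II keratin of non-cornified stratified epithelia, was at 15.9 FPKM with vehicle, 3.54 with XY018 at 1.25 µM, 1.43 at 2.5 µM, 10.2 with ATV and 1.54 with both. Its log2 ratios were −2.13, −3.38, −0.63 and −3.28, and with GSK805 it was at 15.0 against 48.3 FPKM (−1.68). KRT4 was thus called lower in all 5 treated libraries of this line. KRT10, a keratin of differentiating epidermis, was at 11.1 FPKM with vehicle and 22.1 with XY018 at 2.5 µM (0.99), but at 23.0 against 28.4 FPKM with GSK805 (−0.30).

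The hair keratin KRT81, the most abundant of the others in vehicle-treated MDA-MB468, was at 173 FPKM with vehicle, 181 and 122 with XY018, 164 with ATV and 68.9 with both, and only the last passed 1.5-fold (−1.33). With GSK805 it was at 49.7 against 135 FPKM (−1.44). In the same comparison KRT80 was at −1.20, KRT83 at −1.35, KRT86 at −0.55, KRT15 at 0.65 and KRT6C at 0.01. KRT80 and KRT15 stayed within 1.5-fold in the XY018 and ATV table, and KRT86 was at 0.64 with XY018 at 2.5 µM.

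Genes whose products anchor keratins had a median nearer to 0 than the basal keratins in HCC70. Of 18 genes of desmosomes, hemidesmosomes and keratin linkers compared at 2.5 µM XY018, 2 were lower and 0 higher (median −0.15), against 3.26% of all genes lower and 2.62% higher, and the desmosomal plaque protein PKP1 went from 42.0 to 23.2 FPKM (−0.86). In MDA-MB468 4 of 15 were lower and 0 higher (median −0.21), against 14.5% and 14.1% of all genes, with the linker EPPK1 from 11.6 to 5.01 FPKM (−1.20). With GSK805 0 of 15 were lower and 1 was higher (median 0.15), against 16.6% and 17.6% of all genes, and that gene, the cadherin DSC3, went from 17.3 to 28.6 FPKM (0.72). A link between keratins and their anchors was not tested.

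Of the basal epithelial genes other than keratins, 3 of 15 were lower and 0 higher in HCC70 with XY018 at 2.5 µM (median −0.16), where 3.26% of all genes were lower and 2.62% higher. In MDA-MB468 7 of 14 were lower and 1 higher (median −0.60), where 14.5% of all genes were lower and 14.1% higher. With GSK805 6 of 15 were lower and 1 higher (median −0.17), where 16.6% of all genes were lower and 17.6% higher. The annexin ANXA8 went from 12.7 to 4.48 FPKM in HCC70 (−1.48) and caveolin CAV1 from 19.9 to 7.02 FPKM in MDA-MB468 (−1.49). EGFR, CDH3 and LAMB3 were within 1.5-fold of vehicle in HCC70 at that dose, at 0.01, −0.09 and 0.24. The gene lists overlap, so their counts are not independent. ITGA6 and ITGB4 are also in the anchor list, VIM in that of other intermediate filament genes and TP63 in that of regulators. GATA3 and FOXA1 are both luminal genes and regulators. In MDA-MB468 with XY018 at 2.5 µM, VIM (1.30, higher), ITGA6 (−0.78, lower) and FOXA1 (−0.67, lower) were each called in both of their lists.

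Luminal genes other than keratins gave 1 lower of 12 in HCC70 (median −0.16), 3 lower and 1 higher of 11 in MDA-MB468 (median −0.22), and 1 lower and 3 higher of 11 with GSK805 (median 0.20). The shares of all genes in these comparisons were 3.26% lower and 2.62% higher, 14.5% and 14.1%, and 16.6% and 17.6%. The surface protein CD24 went from 894 to 464 FPKM with XY018 in MDA-MB468 (−0.95), and the disulfide isomerase AGR2 from 108 to 10.2 FPKM with GSK805 (−3.40). Against the same shares 2 of 8 cornification genes were lower in HCC70 (median −0.37), among them the cornified envelope gene CNFN, from 11.9 to 6.61 FPKM (−0.83). In MDA-MB468 1 of 4 was lower and 1 higher with XY018 (median −0.20), the lower one being S100A7, from 148 to 9.22 FPKM (−3.99), and 1 of 4 was lower with GSK805 (median −0.43).

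Regulators of keratin genes gave 0 lower and 1 higher of 11 in HCC70 (median −0.07), where 3.26% of all genes were lower and 2.62% higher. In MDA-MB468 2 of 11 were lower and 1 higher with XY018 (median −0.26), near the 14.5% and 14.1% of all genes, and 0 of 11 were lower and 2 higher with GSK805 (median 0.15), where the shares of all genes were 16.6% and 17.6%. KLF4, a factor of epithelial differentiation, had the largest absolute ratio among members of this list at 5 FPKM or above in each, from 14.2 to 24.8 FPKM (0.80), from 2.83 to 10.6 (1.87) and from 3.42 to 8.04 (1.21). With both compounds KLF4 was at 21.8 FPKM in HCC70 and 14.5 in MDA-MB468. Among intermediate filament genes of other classes 0 of 5 was called in HCC70 (median −0.27). In MDA-MB468 3 of 6 were lower and 1 higher with XY018 (median −0.57), and 5 of 6 were lower with GSK805 (median −0.95), against the same shares of all genes. The nuclear lamin LMNB1 went from 48.4 to 17.7 FPKM with XY018 (−1.45) and from 107 to 48.4 FPKM with GSK805 (−1.15).

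Genes outside the 10 were ranked by how near their 9 log2 ratios to vehicle lay to the median of a keratin class, among 7120 genes that reached 5 FPKM with vehicle in each table. Nearest to the basal median were KYNU, QPRT and the desmosomal cadherin DSC2, with root mean square differences of 0.22, 0.24 and 0.25 against a root mean square of 0.59 for the median itself. Nearest to the luminal median were DNAJB6, TRA2B and NDUFA11, with 0.08, 0.08 and 0.09 against 0.39. The luminal median is closer to 0 in most comparisons, so a small difference is easier to reach there.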

How the data were processed

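RNA was sequenced from 12 libraries of HCC70 and MDA-MB468 cells, prepared with a TruSeq kit and run on a HiSeq instrument per the labels. The deposited values are FPKM per gene in 3 tables that the authors normalized separately; the submitters' processing notes name BWA, Bowtie, Cufflinks and the GRCh37 (hg19) build, the table headers name no unit, and the division of fragments between near-identical copies is not given in the sources used here. Symbols with several rows were represented by the row with the highest FPKM, and all 10 keratins had a single row.

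The log2 ratio of 2 libraries of a table was computed after adding 0.1 FPKM to both, where either reached 1 FPKM, and called past 1.5-fold. Comparisons were 9 of a treated library with its vehicle and 6 between treated libraries. With 1 library per condition there was no test and no p-value. The number of mapped fragments was estimated for each library from the step between the low FPKM values. That step is what 1 fragment is worth in a gene of known length. The estimated fragments, without the added 0.1 FPKM, gave 95% exact Clopper-Pearson intervals for a ratio, which cover counting error only. The estimate was tested on simulated data that followed its own counting model. The simulated data held no fragments shared between copies, so the effect of such sharing was not tested. Intervals say nothing of the variation between cultures.

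The members were taken by name, and the members and gene lists were chosen with earlier results of these data known. All 10 keratins are named in every library. Of each other list the named gene is the one with the largest absolute ratio past 1.5-fold among those at 5 FPKM or above, at 2.5 µM of XY018 or GSK805, with every other keratin at 5 FPKM or above and the 3 genes nearest to each keratin median. Cell type markers are named by their list, some members of the lists are not reported here, and a few further values of named genes were chosen after they were seen. Alternatives were other pseudocounts, filters, scalings and thresholds, summed copies, and the vehicle of the other MDA-MB468 experiment. Coordinates and shared sequence come from GENCODE v44 in GRCh37 coordinates, and the promoter from the RefSeq table of GRCh38.p14, which held 2 of the 10 genes. Values were computed in Python 3.11.15 (scipy 1.17.1 for intervals, pandas 2.3.3 and numpy 2.4.6 for tables) and drawn with matplotlib 3.10.9.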

Additional observations from a re-analysis of the deposited data

Results flagged for a closer look

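KRT6B moved in opposite directions in the 2 cell lines. With XY018 at 1.25 µM its log2 ratio to vehicle was −0.66 in HCC70 and 0.94 in MDA-MB468, and MDA-MB468 minus HCC70 was 1.6. With XY018 at 2.5 µM the ratios were −0.80 and 1.0, a difference of 1.8, and with XY018 and ATV together they were −0.94 and 2.30, a difference of 3.24. The difference was not tested, since each line has 1 library per condition. The 3 comparisons of a line share its vehicle library.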

How the results depend on the processing

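Of 346 values recomputed for medians, counts and shares, 303 kept their reading, and 43 moved; of 576 for single keratins and for shares of all genes called 534 kept it, 40 moved and 2 reversed. At a threshold of 2-fold the keratins called lower went from 5 to 0 in HCC70 with XY018 at either dose and with both compounds over ATV alone, and from 6 to 3 with both over vehicle. In MDA-MB468 they went from 5 to 2 with XY018 at 2.5 µM, from 2 to 1 with both, from 1 to 0 with both over XY018, from 3 to 1 with both over ATV and from 5 to 1 with GSK805, and those called higher from 1 to 0 with XY018 at 1.25 µM and with ATV. Without a filter KRT6A entered, those higher in MDA-MB468 were 2 with XY018 at either dose, ATV or both, and its basal medians were −0.23 and −0.24 with XY018, 0.22 with both and −0.27 with both over ATV. A filter at 5 FPKM gave the same −0.23, −0.24 and 0.22, and left 1 keratin lower with both, 0 at the dose step and 0 with both over XY018, since it drops KRT14. Adding 1 FPKM left 0 lower with both over XY018, and adding 0.01 made 1 higher with GSK805. The shares of all genes called were not computed at these settings. The counts here therefore have no background beside them and show only how the keratin calls depend on the setting.

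Set against the vehicle of the XY018 experiment, which was normalized apart, GSK805 gave a basal median of 1.39, a luminal median of −0.54, 2 keratins lower and 5 higher, and KRT5 and KRT14 reversed to 1.5 and 0.37. Without KRT19 the basal share was 61.3% in HCC70 vehicle, 51.7% and 47.4% with XY018, 59.9% with ATV and 49.0% with both; in MDA-MB468 it was 9.87%, 7.82%, 7.93%, 10.9% and 12.7%, and 19.4% and 24.1% without and with GSK805, a higher share than in its vehicle. Except where an alternative's construction shows it, the cause was not tested. Rescaling and summed rows moved none of these. The backgrounds at 50 FPKM or above and over shared symbols were chosen after seeing the data. No paired analysis was possible because each condition has 1 library. Depth limits KRT14 and, in MDA-MB468, KRT6A and KRT6B most, and no value carries an error between cultures.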
